A study of Mus musculus with 42 samples.

Results

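Loss of DGCR8 was examined at the end of the conversion of mouse embryonic stem cells (ESCs) into epiblast-like cells (EpiLCs), at 72 and 96 h in EpiLC medium. The members were chosen by their labels: the DGCR8 knockout libraries at 72 and 96 h and, as controls, the libraries of KH2-ISY1 cells without doxycycline (Dox) at the same hours, paired by hour, with all named genes. These are 4 of the 42 libraries of the series, and 16325 of the 16345 genes in the table carry a usable name. The control ESC line, KH2-ISY1, carries a construct from which Dox would switch on a Flag-tagged copy of the splicing factor ISY1, and it received no Dox here. The knockout is a separate ESC line described only as lacking DGCR8, with no Dox and no parental line given, so the loss of DGCR8 and the difference between 2 cell lines cannot be told apart. Both lines had entered EpiLC medium from 2i/LIF, which holds ESCs in the naive state. Each line and hour has 1 library of polyA RNA, and no clone is named.

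DGCR8 binds RNA and works with the nuclease DROSHA, and together they cut primary transcripts into the hairpins that DICER1 turns into microRNAs. A microRNA guides Argonaute and TNRC6 proteins to messenger RNAs that pair with its seed, bases 2 to 8, and the bound messenger is translated less and decays faster. In ESCs the miR-290 and miR-302 clusters make up a large part of the microRNAs, and they are known to act on cell cycle inhibitors, on apoptosis genes and on the exit from naive pluripotency. On that exit, cells lose naive factors such as KLF2, KLF4 and ESRRB and gain formative factors such as FGF5, OTX2 and POU3F1.

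The microRNAs whose target lists are followed here share few seeds. The mature sequences below are RefSeq's (GRCm38.p6), 5′ to 3′, with the seed in capitals. Whether the listed target genes hold matches to these seeds was not examined here. The first 5, from the miR-290 cluster on chromosome 7 and the miR-302 cluster on chromosome 3, have the seed AAGUGCU.
mmu-miR-291a-3p: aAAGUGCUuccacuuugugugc
mmu-miR-294-3p: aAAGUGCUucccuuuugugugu
mmu-miR-295-3p: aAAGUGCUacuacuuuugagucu
mmu-miR-302b-3p: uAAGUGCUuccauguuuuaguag
mmu-miR-302d-3p: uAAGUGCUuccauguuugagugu
The next 3, of the miR-17 family, have the seed AAAGUGC, which is the first seed moved by 1 base, so that a messenger can pair with both.
mmu-miR-17-5p: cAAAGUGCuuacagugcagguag
mmu-miR-20a-5p: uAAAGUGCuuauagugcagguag
mmu-miR-93-5p: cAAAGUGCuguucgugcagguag
The last pair stands for the let-7 family, known to act on growth genes, and for the miR-200 family, known to act on Zeb1.
mmu-let-7g-5p: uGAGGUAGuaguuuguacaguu
mmu-miR-200b-3p: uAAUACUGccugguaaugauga
In small RNA of KH2-ISY1 cells without Dox, the deposited table gives values without naming the arm and on an unstated scale. At 48 h in EpiLC medium miR-295 stood at 10362 and miR-294 at 8764, the fourth and the fifth of 256 microRNAs. miR-20a stood at 8536 and miR-17 at 4685, against 1250.2 and 757 at 0 h. let-7g stood at 1697 and miR-200b at 496 at 48 h. No small RNA library of the knockout and none after 48 h was used here, so the loss of these microRNAs was not measured.

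Before the results, the libraries themselves differ in several ways. The control libraries hold an estimated 11.4 and 13.2 M reads at 72 and 96 h and the knockout libraries 33.5 and 38.8 M reads, so 175 and 230 genes were listed at 0 in the control and 83 and 86 in the knockout. In the values used here, 1 read is worth 0.5 and 0.426 units in the control and 0.163 and 0.142 in the knockout, and these depths set the counting error of low values. The knockout libraries after 48 h stand apart from the earlier ones in Y-linked genes. Ddx3y lay between 39.1 and 88.3 in the knockout from 0 to 48 h and at 259 and 257 at 72 and 96 h, while the control ranged from 160.4 to 298. Usp9y went from 0.3 to 1.9 up to 72.9 and 63.5, above the control range of 4.4 to 8.7. Eif2s3y and Uty also stepped up, to 148 and 158 and to 32.3 and 37.6, from at most 54.2 and 16, while Kdm5d showed no such step (126 to 188 before, 167 and 152 after). Lars2, which encodes a mitochondrial leucyl-tRNA synthetase, lay between 6320 and 16358 in the knockout up to 48 h and at 2925 and 2647 afterwards. Genes of chromosome 1 had a median log2 difference of 0.22 over 72 and 96 h and those of chromosome 6 of 0.35, while the medians of the other 18 chromosomes apart from Y lay between −0.18 and 0.01. On chromosome 6 the median was 0.11 to 0.18 up to 48 h, 0.29 at 72 h and 0.39 at 96 h. The part of these library features in the results was not tested, and genes on chromosomes 1 and 6 are named as such where they are first described.

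**Figure D1:**
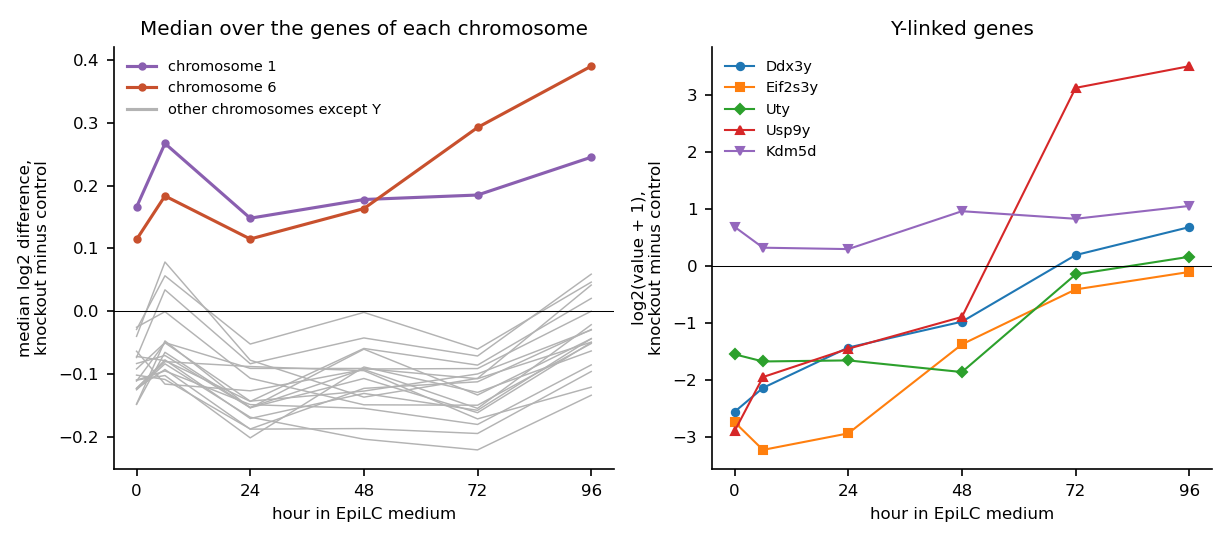
The left panel plots, against hour, the median knockout minus control log2 difference over the genes of each chromosome with a mean of at least 20, and the right panel the same difference for 5 Y-linked genes, with 1 library per line and hour and no error bars. Chromosome 1 and chromosome 6 lie above the other chromosomes at every hour, with chromosome 6 at 0.39 at 96 h, and 4 of the Y-linked genes step up between 48 and 72 h.

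The labels of cell state were checked against marker genes. The 2 general markers Pou5f1 and Sox2 summed to 7731 and 6289 in the control and 10518 and 9992 in the knockout, and the 5 formative markers to 3136 and 2855 and to 2452 and 2983. Both lines therefore carried the markers of pluripotent and formative cells. The 5 naive markers summed to 906 and 479 in the control and to 3279 and 2119 in the knockout. Markers of primitive endoderm, mesendoderm and feeder fibroblasts were low. The 3 of 4 primitive endoderm markers in the table summed to at most 15.7, the 3 mesendoderm markers to at most 62.1 and the 2 of 4 feeder fibroblast markers to at most 17.5. T, the mesoderm factor, was at 0 and 0.4 in the control and 0.5 and 0.7 in the knockout and lay under the filter on low values. The 3 neural markers summed to 709 and 783 in the control and 560.2 and 900.2 in the knockout, mostly from Nes, and the 2 of 3 muscle markers to 17 and 30.7 and to 318 and 102, mostly from Ttn. In bulk samples, fewer cells of a type and less RNA per cell cannot be told apart.

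The targeted gene was lower in the knockout but not absent. Dgcr8 transcript stood at 151 and 79.1 in the control and 44.5 and 36.8 in the knockout, a log2 difference of −1.41 ± 0.35 (SE; limma adjusted p = 0.0294). Over the 6 hours of the course it was 43.4, 43.3, 41.8, 42.1, 44.5 and 36.8 in the knockout and 96.5, 231, 138, 75.2, 151 and 79.1 in the control, and no control value lay within the knockout's range. The table gives values per gene, so a transcript that lacks the deleted part is counted like an intact one, and the level does not measure DGCR8 protein. Here and below, a value is a deposited read count divided by 1 factor per library. A difference is knockout minus control on the log2(value + 1) scale, averaged over 72 and 96 h, and it understates the change of genes with low values. Called means a Benjamini-Hochberg adjusted p of at most 0.05 over 16267 tested genes.

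At 72 and 96 h, 3081 of the 16267 tested genes were called, or 18.9%, of which 1619 (9.95%) were higher and 1462 (8.99%) lower in the knockout. At least 2-fold differences were reached by 1799 of them, 1034 higher (6.36%) and 765 lower (4.7%). The median difference of all tested genes was −0.05. In the fit with the same terms, 3151 genes (19.4%) were called at 0 and 6 h and 4381 (26.9%) at 24 and 48 h. Hour by hour, with 1 library a side and no test, 3081 genes (18.9%) differed by at least 2-fold at 72 h, 1415 higher and 1666 lower, and 2822 (17.3%) at 96 h, 1721 higher and 1101 lower (8.7% and 10.2% of genes at 72 h, 10.6% and 6.77% at 96 h). Of these, 1827 were at least 2-fold different in the same direction at both hours, 59.3% of the 72 h set and 64.7% of the 96 h set, and 13 were so in opposite directions. Across genes the differences at the 2 hours correlated with r = 0.81, as a description, since genes are not replicates. The test takes its spread from hours within the 3 phases (3 residual degrees of freedom), because no condition was repeated at an hour. Without hour as a block 1011 genes were called, 339 with the 72 h pair left out and 166 with the 96 h pair left out. Leaving out 1 pair moved the count of calls in at least 1 direction by 1.5 times or more in each of the 32 gene lists below, of 33, that hold a call.

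**Figure D2:**
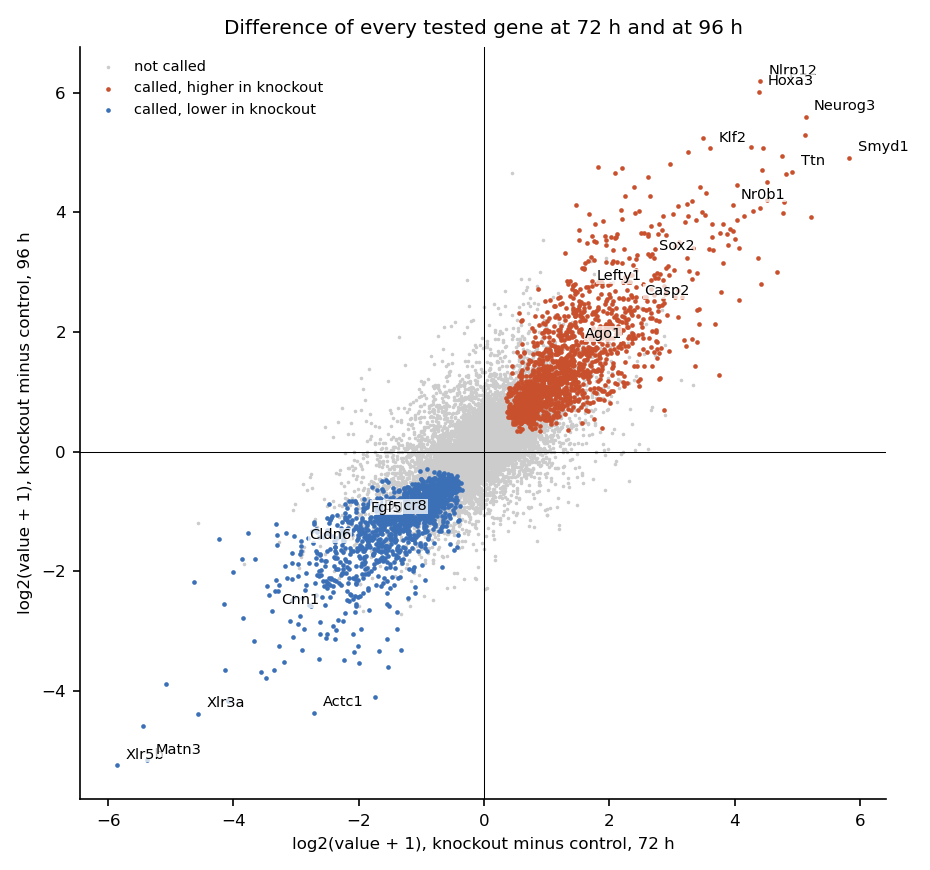
Each point is 1 of the 16267 tested genes, with the knockout minus control difference of log2(value + 1) at 72 h on the x axis and at 96 h on the y axis, 1 library a side. Red points (1619) were called higher and blue points (1462) lower in the knockout, and grey points were not called. Called genes lie along the diagonal, with Xlr5b and Matn3 at its lower end and Smyd1, Neurog3 and Hoxa3 at its upper end.

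MicroRNA processing genes other than Dgcr8 were not called. Of the 10 members, 0 were higher and 1, Dgcr8, was lower, and the list's median difference was 0.06. Drosha stood at 924 and 748 in the control and 939 and 928 in the knockout, and Dicer1 at 1569.5 and 1486 in the control and 2032 and 2004 in the knockout (difference 0.40, adjusted p = 0.0681). Isy1, on chromosome 6, the gene that Dox would induce in the control line, stood at 558 and 418 in the control and 513 and 459.5 in the knockout (0.01). Of the 11 silencing genes 4 were called higher, against 9.95% of all genes, and 0 lower, with a median of 0.21. Tnrc6a, a scaffold that links Argonaute to deadenylases, stood at 564 and 372 in the control and 1493 and 1405 in the knockout (1.66 ± 0.17, adjusted p = 0.00165). Ago1, an Argonaute, stood at 925 and 866 in the control and 2564 and 3004 in the knockout (1.63 ± 0.17, adjusted p = 0.00171). The other called genes were Tnrc6b, at 963 and 798 in the control and 1834 and 2296 in the knockout (1.23), and Tnrc6c, at 178 and 173 in the control and 253 and 299 in the knockout (0.65). For these 4 genes the knockout values lay above both control values, but 0 of the 11 were called when the 96 h pair was left out. Ago2, the slicing Argonaute, stood at 3749 and 3987 in the control and 3182 and 3445 in the knockout and was not called (−0.22). Ago1 was already 1.77 higher at 0 and 6 h and 1.36 at 24 and 48 h.

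Members of the list of miR-290 and miR-302 targets were more often higher than lower. Of 18 tested, 11 were called higher and 0 lower, against 9.95% of all genes called higher, and the median difference was 1.02. Casp2, an initiator caspase, stood at 236 and 231 in the control and 1266 and 1321 in the knockout, a difference of 2.46 ± 0.14 (adjusted p = 0.000486). Irf2, a transcription factor of interferon genes, stood at 3 and 13.6 in the control and 25.9 and 59.1 in the knockout (2.40 ± 0.36, adjusted p = 0.00514). Rbl2, a pocket protein that restrains the step from G1 to S phase, stood at 53 and 40.4 in the control and 209.5 and 163 in the knockout (1.97 ± 0.18, adjusted p = 0.00128). In all 3 genes both knockout values exceeded both control values. Casp2 lies on chromosome 6, whose median was 0.35. Lefty1, a secreted inhibitor of Nodal on chromosome 1, stood at 3977 and 1639 in the control and 12590 and 11098 in the knockout (2.21 ± 0.59, adjusted p = 0.0355). The difference of Rbl2 was 2.10 at 0 and 6 h and 1.93 at 24 and 48 h, and that of Casp2 1.71 and 2.14. Among members not called, Txnip, an inhibitor of thioredoxin, stood at 536 and 890.2 in the control and 1569 and 1233 in the knockout (adjusted p = 0.172), and Akt1, a kinase, at 434 and 445 in the control and 328 and 528 in the knockout. Without the 72 h pair 3 of the 18 were called higher and without the 96 h pair 4.

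The miR-17-92 target list had 5 of 10 members called higher and 0 lower, against 9.95% and 8.99% of all genes. The median was 0.83, and all 10 differences were positive. Phlpp2, a phosphatase that acts on AKT, stood at 103 and 148 in the control and 267 and 360.1 in the knockout (1.32 ± 0.35, adjusted p = 0.0347). Tgfbr2, a TGF-beta receptor, stood at the low values of 6 and 8.1 in the control and 12.9 and 17.9 in the knockout (1.02 ± 0.23, adjusted p = 0.0216). Cdkn1a, which encodes the cyclin-dependent kinase inhibitor p21, stood at 507 and 347 in the control and 936 and 742 in the knockout (0.99 ± 0.20, adjusted p = 0.0152), and E2f2, a cell cycle transcription factor, at 95 and 79.1 in the control and 175 and 151 in the knockout (0.90). The remaining call was E2f1 (0.80), and the 5 called differences ran from 0.80 to 1.32. Tgfbr2 and Cdkn1a are also in the list of miR-290 and miR-302 targets, so the lists are not independent. All 5 calls ended when either pair or the hour block was left out.

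The let-7 target list did not move as a group, with 3 of 11 called higher (2 without the 72 h pair, 0 without the 96 h pair), 0 lower and a median of −0.06. Over all genes 9.95% were called higher. Ccnd2, a D-type cyclin on chromosome 6, stood at 40.5 and 11.5 in the control and 132 and 196 in the knockout (2.83 ± 0.49, adjusted p = 0.00845). Mycn, a MYC family factor, stood at 376 and 206 in the control and 916 and 754 in the knockout (1.58 ± 0.21, adjusted p = 0.00356). Igf2bp2, an RNA-binding protein, stood at 109 and 105 in the control and 314 and 256 in the knockout (1.40). Others lay near or below 0. Lin28a, the inhibitor of let-7 maturation, was at 4666 and 4209.8 in the control and 2271 and 3396 in the knockout (−0.67, adjusted p = 0.0887), Hmga2 at 100 and 139 in the control and 94.3 and 134 in the knockout and Trim71 at 1936 and 2023 in the control and 2658 and 2194 in the knockout.

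Cell cycle and survival genes gave few further calls, where 9.95% of all genes were called higher and 8.99% lower. In the G1/S list 4 of 17 were higher (Ccnd2, Rbl2, Cdkn1a and the transcription factor E2f1, at 188 and 148 in the control and 291 and 289 in the knockout) and 1 was lower, the D-type cyclin Ccnd3, at 142 and 143 in the control and 91.5 and 91.9 in the knockout (−0.63 ± 0.16, adjusted p = 0.0308), with a list median of 0.41. Of 12 p53 targets 2 were higher, near the 9.95% of all genes, and 0 lower, with a median of 0.11. They were Cdkn1a and the stress protein gene Sesn2, at 1015 and 579 in the control and 1716 and 1651 in the knockout (1.13 ± 0.18, adjusted p = 0.00681), while Mdm2, the feedback inhibitor of p53, stood at 246 and 144 in the control and 249 and 143 in the knockout. Of 13 apoptosis genes Casp2 and Ei24 were higher and 0 were lower, with a median of 0.25. Ei24, named for its induction by etoposide, stood at a mean of 314 in the control over both hours and at 809 and 546 in the knockout (1.08).

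Naive pluripotency genes were mostly higher in the knockout at the end of the course. Of 21 tested, 13 were called higher and 1 lower, against 9.95% and 8.99% of all genes, with a median of 1.5. Klf2, a Krüppel-like factor, stood at 85.5 and 17.9 in the control and 1057 and 636 in the knockout, a difference of 4.34 ± 0.52 (adjusted p = 0.00259). Nr0b1, a nuclear receptor also called Dax1, stood at 36.5 and 10.6 in the control and 587 and 201 in the knockout (4.05 ± 0.50, adjusted p = 0.00279). Pecam1, an adhesion molecule of naive ESCs, stood at 28 and 8.1 in the control and 275 and 139 in the knockout (3.59 ± 0.20, adjusted p = 0.000486). In these genes even the lower knockout value lay above the higher control value. Nr5a2, a nuclear receptor on chromosome 1, stood at 8.5 and 1.3 in the control and 75.7 and 35.1 in the knockout (3.49 ± 0.31, adjusted p = 0.00117). The other 9 called higher were Prdm14 (2.60), Esrrb (1.97), Tcl1 (1.93), Tfcp2l1 (1.59), Gbx2 (1.54), Zfp42 (1.5), Dppa3 (1.39), Fgf4 (1.20) and Tet2 (1.97). Of these, Prdm14, Tfcp2l1 and Gbx2 lie on chromosome 1 and Dppa3 on chromosome 6. Klf5 went the other way, at 218 and 217 in the control and 78.1 and 67.8 in the knockout (−1.56 ± 0.24, adjusted p = 0.00586). Nanog, on chromosome 6, stood at 521 and 766 in the control and 615 and 625 in the knockout (−0.03 ± 0.28, adjusted p = 0.954) and Klf4 at 50 and 12.3 in the control and 42.1 and 22.2 in the knockout (0.28 ± 0.65, adjusted p = 0.791), and neither was called. Both lines had lost most Klf4 by then, from 2519, 207, 61.8, 31.9, 50 and 12.3 in the control in order of hour and 1994, 1058, 596, 73.8, 42.1 and 22.2 in the knockout. Without the 72 h pair 8 of the 21 genes were called higher, and without the 96 h pair 4. The list already differed earlier: at 24 and 48 h 12 of the 21 were called in either direction, against 26.9% of all genes. The list's median was then 1.14, and the difference of Klf2 was 4.79. At 0 and 6 h 4 were called, against 19.4% of all genes, with a median of 0.29.

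Of the 10 core pluripotency genes 4 were higher, against 9.95% of all genes, 0 lower, and the median was 0.57; with either pair left out 2 were higher. Sox2, a partner of OCT4, stood at 273 and 152 in the control and 1723 and 1481 in the knockout (2.96 ± 0.20, adjusted p = 0.000498). Over the course Sox2 read 1957, 1996, 1674, 974, 273 and 152 in the control and 2628, 3139.5, 3009, 2603, 1723 and 1481 in the knockout, and the distance between the lines was widest at 72 and 96 h. Gdf3, a TGF-beta family ligand on chromosome 6, stood at 768 and 434 in the control and 2215 and 1782 in the knockout (1.78 ± 0.19, adjusted p = 0.00165). Dppa2 stood at 388 and 90.2 in the control and 782 and 459 in the knockout (1.67) and Dppa5a at 3894 and 2715 in the control and 6776 and 4989 in the knockout (0.84), both genes of early embryonic cells. Pou5f1, which encodes OCT4, was not called, at 7458 and 6137 in the control and 8795 and 8511 in the knockout (0.35 ± 0.15, adjusted p = 0.141).

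**Figure D3:**
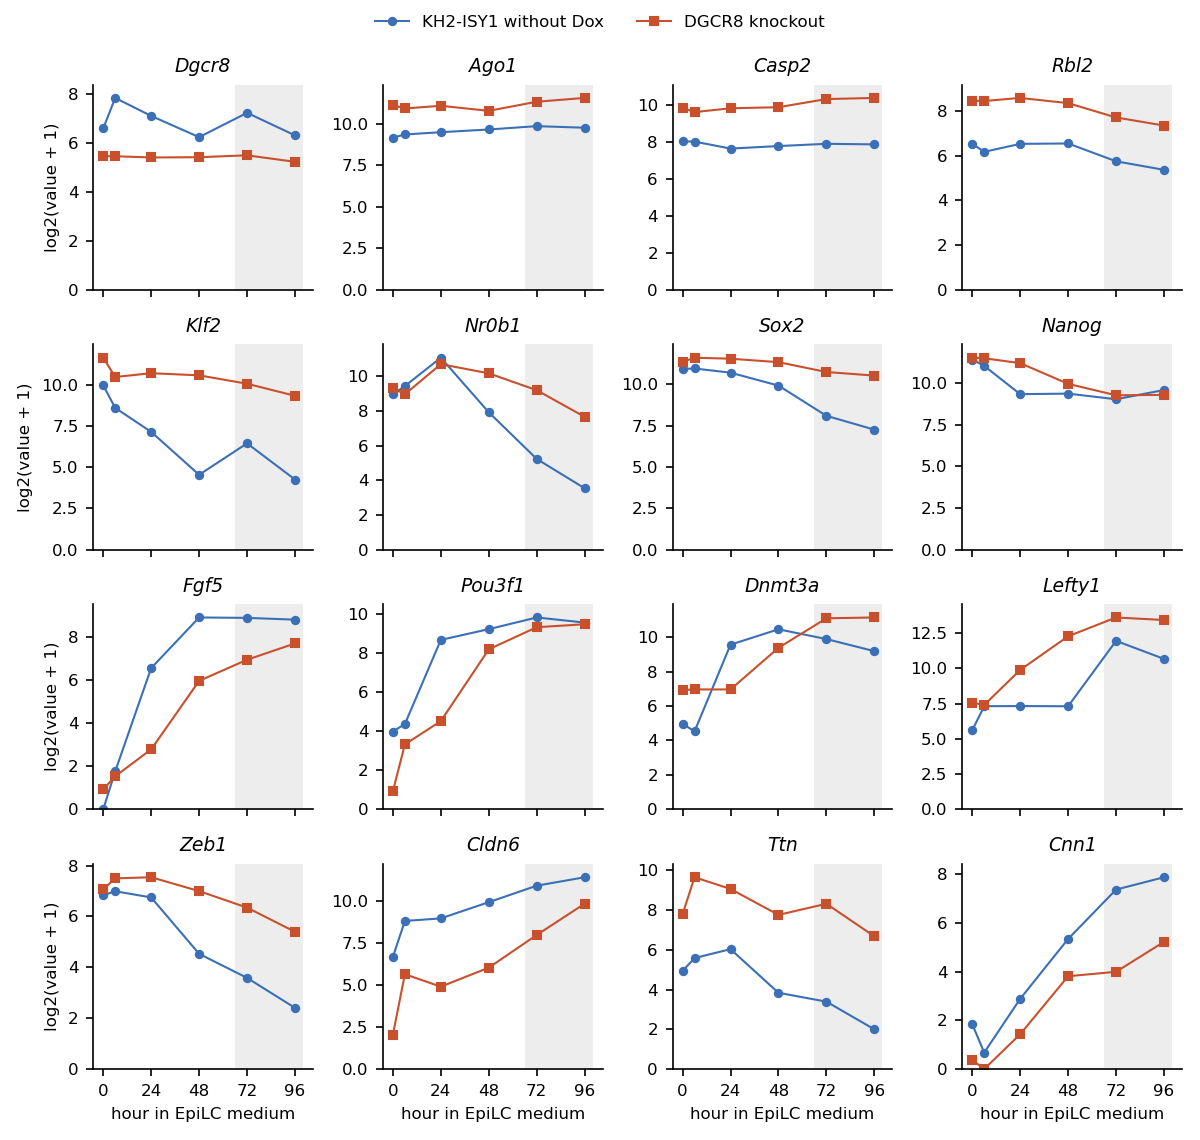
Levels of 16 genes, as log2(value + 1) against hour in EpiLC medium, in KH2-ISY1 cells without Dox (blue circles) and in the DGCR8 knockout (red squares), with 1 library per point, no error bars, and 72 and 96 h shaded. In the shaded hours Klf2, Nr0b1, Sox2, Zeb1 and Ttn are higher in the knockout and Fgf5, Cldn6 and Cnn1 lower, while the Pou3f1 and Nanog lines meet.

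Formative epiblast genes were called in both directions, 3 of 18 higher and 3 lower, against 9.95% and 8.99% of all genes. The median was 0.05. Fgf5, a growth factor of the epiblast after implantation, stood at 476 and 449 in the control and 123 and 208 in the knockout (−1.53 ± 0.38, adjusted p = 0.0293). At 24 and 48 h its difference had been −3.36. Wnt8a, a Wnt ligand, stood at 26 and 30.2 in the control and 9 and 5.7 in the knockout (−1.83) and Zic5, a zinc finger factor, at 1336 and 993 in the control and 622 and 648 in the knockout (−0.86), both lower. Dnmt3a, a de novo DNA methyltransferase, was higher, at 947 and 581 in the control and 2185 and 2259 in the knockout (1.58 ± 0.34, adjusted p = 0.0179), although its difference was −1.84 at 24 and 48 h. Sox4 stood at 478 and 608 in the control and 923 and 1349 in the knockout (1.05) and Cdh2, which encodes N-cadherin, at 34 and 24.7 in the control and 144 and 142 in the knockout (2.26 ± 0.35, adjusted p = 0.00565). Other defining markers were not called. Pou3f1, a POU factor, stood at 904 and 754 in the control and 639.5 and 709.8 in the knockout (−0.29 ± 0.68, adjusted p = 0.793), after differences of −2.05 at 0 and 6 h and −2.59 at 24 and 48 h. Otx2, a homeobox factor, stood at 155 and 463 in the control and 406 and 479 in the knockout (0.72 ± 0.34, adjusted p = 0.176), and Dnmt3b at 1395 and 936 in the control and 1181 and 1406 in the knockout (0.17 ± 0.22, adjusted p = 0.607). All 6 calls of the list ended without either pair and without the hour block.

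Of 9 DNA methylation genes 5 were called higher and 1 lower, against 9.95% and 8.99% of all genes, and the median was 1.12. Besides Dnmt3a, the higher genes were Tet2, a dioxygenase that oxidises methylcytosine, at 45.5 and 35.3 in the control and 208 and 123 in the knockout (1.97 ± 0.17, adjusted p = 0.00101), and Dnmt3l, a cofactor of the methyltransferases, at 209 and 64.7 in the control and 725 and 249.7 in the knockout (1.86 ± 0.44, adjusted p = 0.0243). Tet3, a second dioxygenase on chromosome 6, stood at 285 and 251 in the control and 524 and 692 in the knockout (1.17), and Tet1 at 1529 and 913 in the control and 2997 and 2212 in the knockout (1.12). Tdg, the glycosylase that removes oxidised bases, was lower, at 568 and 489.8 in the control and 322 and 309.8 in the knockout (−0.74), and Dnmt1, the maintenance methyltransferase, was not called, at 1240 and 1272 in the control and 1556 and 1423 in the knockout. Only 1 of the 5 higher calls was left without the 72 h pair, without the 96 h pair or without the hour block, and 2 without the trend.

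Signals that pattern the epiblast were examined next, beside 9.95% of all genes called higher and 8.99% lower. Of 14 Nodal and Lefty genes 3 were higher and 0 lower (median 0.02), and 0 were called when either pair was left out. Lefty2, a Nodal inhibitor on chromosome 1, stood at 1141 and 813 in the control and 3625 and 2751 in the knockout (1.71 ± 0.47, adjusted p = 0.0411), and Smad2, a signal carrier of the pathway, at 122 and 112 in the control and 229.9 and 218 in the knockout (0.94 ± 0.17, adjusted p = 0.00977). The remaining call was Lefty1, given above. The ligand Nodal was not called, at 813 and 726 in the control and 608 and 499 in the knockout (−0.48). Tdgf1, the co-receptor, stood at 3067 and 3960 in the control and 2203 and 2185 in the knockout (adjusted p = 0.0512). In the primitive streak list 0 of 8 tested genes were higher and 2 were lower, with a median of −0.59. Wnt3, a ligand needed for the streak, stood at 45 and 59.6 in the control and 4.6 and 10.2 in the knockout (−2.74 ± 0.51, adjusted p = 0.0109), and Fgf8 at 2 and 11.9 in the control and 0.2 and 0.3 in the knockout (−2.32). With either pair left out 0 of the 8 were called, and 1 was lower under either other scaling, either other pseudocount or a mean of at least 10.

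Of the 8 Wnt target genes tested, 2 were higher and 3 lower, against 9.95% and 8.99% of all genes. The median of −0.18 turned to 0.41 with the 4 late libraries alone, with a mean of at least 10 and with no filter, and to 0.07 with a pseudocount of 4. Axin2, a feedback inhibitor of the pathway, stood at 44 and 83 in the control and 7.7 and 9.7 in the knockout (−2.67 ± 0.38, adjusted p = 0.00425). Nkd1, also an inhibitor, stood at 58.5 and 54.9 in the control and 13.9 and 21.3 in the knockout (−1.66) and Tcf7, a transcription factor, at 549 and 815 in the control and 327 and 385 in the knockout (−0.91). Notum, an enzyme that inactivates Wnt ligands, was instead higher, at 10.5 and 4.3 in the control and 243 and 87.8 in the knockout (4.24 ± 0.61, adjusted p = 0.00443), as was Cdx1, a homeobox factor, at only 2 and 1.3 in the control and 5.1 and 8.2 in the knockout (1.51). Without the 72 h pair 1 Wnt target was called, lower, and without the 96 h pair 0. Of 12 ERK targets 0 were higher and 3 lower, against 8.99% of all genes called lower, with a median of −0.84. Spry1, a feedback inhibitor of receptor tyrosine kinases, stood at 112 and 226 in the control and 30 and 45.6 in the knockout (−2.07 ± 0.32, adjusted p = 0.00552). Dusp4, a phosphatase of ERK, stood at 620 and 812 in the control and 227 and 225 in the knockout (−1.65) and Spry2 at 592 and 663 in the control and 274 and 344 in the knockout (−1.03). Dusp6, a second ERK phosphatase, was not called, at 863 and 1743 in the control and 876 and 1114 in the knockout. All 3 ERK target calls ended when either pair was left out, and 1 was left without the hour block.

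Genes of cell adhesion and of the epithelial to mesenchymal transition were called in both directions, 6 of 12 higher and 3 lower, against 9.95% and 8.99% of all genes. The median of 0.53 turned to −0.41 with a mean of at least 10 and also without genes of chromosomes 1, 6 and Y, each of which drops 1 member. Zeb1, a repressor of epithelial genes and an established target of the miR-200 family shown above, stood at 11 and 4.3 in the control and 80.4 and 41.1 in the knockout (2.88 ± 0.36, adjusted p = 0.00291). Vim, which encodes vimentin, stood at 168 and 159 in the control and 1156 and 813 in the knockout (2.56 ± 0.54, adjusted p = 0.0169), and Snai1, a second repressor, at 10 and 4.7 in the control and 50.1 and 39.6 in the knockout (2.52 ± 0.29, adjusted p = 0.00219). With Cdh2, Fn1 (fibronectin, on chromosome 1) and Snai2, all 6 higher members are mesenchymal genes. Twist1, also a mesenchymal factor of the list, had a negative difference and was not called. The 3 lower members are epithelial. Cldn6, a tight junction protein, stood at 1894 and 2682 in the control and 248 and 904 in the knockout (−2.25 ± 0.38, adjusted p = 0.00808), Ocln at 94.5 and 122 in the control and 20.7 and 53.3 in the knockout (−1.66) and Epcam at 2759.5 and 3534 in the control and 1679 and 2224 in the knockout (−0.69). Cdh1, which encodes E-cadherin, was not called, at 7885 and 7409 in the control and 5387 and 5766 in the knockout (−0.46, adjusted p = 0.103). Without the 72 h pair 3 genes of the list were higher and 0 lower, and without the 96 h pair 1 was higher and 1 lower.

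Targets of YAP/TEAD and of the serum response factor, many of which encode contractile proteins, were mostly lower. Of 11 tested 6 were called lower and 1 higher, against 8.99% of all genes called lower, with a median of −1.05. Cnn1, a smooth muscle calponin, stood at 166 and 236 in the control and 15 and 36.6 in the knockout (−3.02 ± 0.39, adjusted p = 0.00317). Ankrd1 stood at 4 and 50.2 in the control and 0.5 and 2 in the knockout (−2.92), so its difference rested mostly on 96 h. Tagln, an actin-binding protein, stood at 587 and 1515 in the control and 98.7 and 318 in the knockout (−2.40 ± 0.58, adjusted p = 0.0264), and Cyr61, a matrix protein, at 693 and 1353 in the control and 334 and 426 in the knockout (−1.36). All 4 had their highest control value at 96 h, and Tagln had stood at 5.2 in the control at 0 h. The higher member was Lats2, a kinase that inhibits YAP, at 66.5 and 87.2 in the control and 293 and 277 in the knockout (1.89 ± 0.21, adjusted p = 0.00197); it is also in the list of miR-290 and miR-302 targets. Without the 72 h pair 1 member was lower and without the 96 h pair 0, and without the hour block 0 were called either way.

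Lineage genes gave scattered calls, beside 9.95% of all genes called higher and 8.99% lower. Of 12 striated muscle genes 2 were higher and 3 lower (median 0.20). Ttn, which encodes titin, stood at 9.5 and 3 in the control and 318 and 101 in the knockout (4.80 ± 0.33, adjusted p = 0.000556), and Smyd1, a muscle methyltransferase on chromosome 6, at 9 and 4.3 in the control and 569 and 159 in the knockout (5.37 ± 0.59, adjusted p = 0.00184). Both were higher in the knockout at all 6 hours, with Ttn reading 29.6, 47, 64.5, 13.3, 9.5 and 3 in the control and 219.7, 803, 533, 215, 318 and 101 in the knockout. The muscle genes that were lower were the actins Actc1, at 7.5 and 27.7 in the control and 0.3 and 0.4 in the knockout, and Acta1, at 28.5 and 119 in the control and 6 and 10.8 in the knockout, and Des (desmin, on chromosome 1), at 121 and 154 in the control and 14.5 and 41.2 in the knockout. The list thus held calls in both directions.

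Of 6 neuroectoderm genes 2 were higher and 0 lower (median 0.64). Beside this list and those that follow, 9.95% of all genes were called higher and 8.99% lower. Pax6, a neural factor, stood at 1 and 0 in the control and 10.1 and 15.2 in the knockout (3.25), where the control values amount to 2 reads and 0, and Olig2 at 56 and 139 in the control and 177 and 264 in the knockout (1.28 ± 0.33, adjusted p = 0.0327). Sox1, a further neural factor, stood at 125 and 67.2 in the control and 158 and 369 in the knockout and was not called (1.39 ± 0.43, adjusted p = 0.0585), and Nes, an intermediate filament gene, stood at 584 and 716 in the control and 392 and 516 in the knockout. Of 8 neuronal genes 1 was higher, the tubulin Tubb3 at 669.5 and 432 in the control and 1288 and 1931 in the knockout, and 3 were lower, Nefm at 174 and 274 in the control and 32.6 and 30.3 in the knockout, Syp at 18.5 and 45.5 in the control and 5.7 and 8.1 in the knockout and Elavl3 at 274 and 272 in the control and 62.5 and 153 in the knockout (median −0.52). In the endoderm list only Col4a1, a basement membrane collagen, was called of 9 genes, at 690 and 706 in the control and 1222 and 1465 in the knockout (0.94), while Gata4 and Gata6 were at most 12.9 in every late library. Of the 5 mesoderm and heart genes 0 were called by limma, also at an unadjusted p under 0.05 (median 0.37), and all were at most 5 in every late library. The trophoblast list gave 1 call in 10, the keratin Krt18, lower at 882 and 2262 in the control and 266 and 646 in the knockout (−1.77), and the median was −0.05. Of 8 germline genes only Nanos3, a regulator of germ cells, was called, at 6 and 1.3 in the control and 22.7 and 25.4 in the knockout (2.64 ± 0.55, adjusted p = 0.0161). Of 8 genes of the two-cell-like state Zscan4d, at 14.5 and 9.8 in the control and 40.6 and 63.2 in the knockout (2.00), and Usp17la, at 5 and 8.5 in the control and 18.9 and 25.9 in the knockout (1.62), were higher and 0 lower (median 1.44), while 4 were called higher with a pseudocount of 4, 1 with 0.5 and 0 with a mean of at least 10. Both belong to families of near-identical copies, among which the counting could split reads. The 2 feeder fibroblast genes called, Thy1 at 135 and 137 in the control and 22.3 and 38.1 in the knockout and Col1a1 at 11 and 16.2 in the control and 3.1 and 3.8 in the knockout, were lower in the knockout (3 tested, median −1.70).

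Of 12 glycolysis genes 6 were lower and 1 higher, against 8.99% and 9.95% of all genes, with a median of −0.39. Aldoa, an aldolase, stood at 2818 and 3844 in the control and 949 and 1189.9 in the knockout (−1.63 ± 0.13, adjusted p = 0.00101), and Ldha, a lactate dehydrogenase, at 5821 and 5683 in the control and 2125 and 2533 in the knockout (−1.31 ± 0.18, adjusted p = 0.00386). Pgk1, a phosphoglycerate kinase, stood at 2087 and 3368 in the control and 935 and 1231 in the knockout (−1.30) and Pfkl, a phosphofructokinase, at 2677 and 3803 in the control and 1343 and 2164 in the knockout (−0.90). The higher gene was Gapdh, on chromosome 6, at 2878 and 2791 in the control and 4643 and 4509 in the knockout (0.69, adjusted p = 0.0308), which has many pseudogene copies that can share its reads. Leaving out the pair at either hour left 1 gene of the list called lower and 0 higher.

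The interferon list had 2 of 13 higher and 1 lower, against 9.95% and 8.99% of all genes (median −0.11). Samd9l, on chromosome 6, stood at 4.5 and 0.9 in the control and 49.8 and 26.3 in the knockout (3.53 ± 0.50, adjusted p = 0.00437), and Gbp4, a guanylate-binding protein, at 5.5 and 5.5 in the control and 90.5 and 56.8 in the knockout (3.48 ± 0.39, adjusted p = 0.00198). Bst2, which encodes tetherin, was lower, at 1291 and 1946 in the control and 436 and 651 in the knockout (−1.57 ± 0.17, adjusted p = 0.00187), and Ifit1, an interferon-induced gene, was not called, at 4 and 4.3 in the control and 9 and 7.1 in the knockout. Of 14 imprinted genes 2 were higher and 4 lower, against the same shares of all genes (median −0.45). Rtl1, a retrotransposon-derived gene, stood at 30.5 and 8.9 in the control and 196 and 190.3 in the knockout (3.46 ± 0.52, adjusted p = 0.00513) and Ndn at 46 and 34.9 in the control and 115 and 189.5 in the knockout (1.86). The lower ones were Peg10, on chromosome 6, at 1225 and 855 in the control and 197 and 213 in the knockout (−2.32), Peg3, at 1703 and 1800 in the control and 441 and 438 in the knockout (−1.99 ± 0.15, adjusted p = 0.000822), Phlda2, at 186 and 129.8 in the control and 31 and 49.4 in the knockout (−1.96), and Impact, at 1660 and 1314 in the control and 916 and 619 in the knockout (−0.97). Among 4 host transcripts of microRNAs, Mcm7, whose introns carry miR-93, was higher, at 2730 and 2604 in the control and 4092 and 3637 in the knockout (0.53), and Sfmbt2, whose intron carries a microRNA cluster, was lower, at 118 and 119 in the control and 21.2 and 22.7 in the knockout (−2.38 ± 0.29, adjusted p = 0.00266).

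The Xlr genes, a family named as X-linked and lymphocyte-regulated, were near 0 in the knockout. All 9 tested members were called lower, with a median of −3.90, and 5 to 6 of them with 1 pair left out. Xlr3a stood at 132 and 117 in the control and 4.6 and 4.7 in the knockout (−4.47 ± 0.30, adjusted p = 0.000498), and Xlr3b at 107 and 75.7 in the control and 5.1 and 5.1 in the knockout (−3.90 ± 0.39, adjusted p = 0.00158). Xlr5b, at 57 and 36.6 in the control, was listed at 0 in both late knockout libraries, where up to 3 reads would be 0.489 and 0.426 units, so it was at least 116-fold lower at 72 h and at least 85.9-fold lower at 96 h, for counting error only. With Xlr5b set to that bound the list's median stayed at −3.90, which was fixed in advance, since Xlr5b already lay below that median. Xlr5b read 0, 0, 0, 0.5, 0 and 0 in the knockout over the course and 13.9, 34.5, 113, 163, 57 and 36.6 in the control. The difference of Xlr3a was −5.03 at 0 and 6 h and −5.33 at 24 and 48 h. These genes are near-identical copies lying together, so they are not 9 independent observations, and reads may be split among them.

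At an unadjusted p under 0.05, limma left 15 of the 18 targets of the miR-290 and miR-302 clusters higher with 0 lower, 8 of the 10 miR-17-92 targets higher and 0 lower, 4 silencing genes higher and 1 lower, and 6 core pluripotency genes higher and 1 lower. For the ERK targets it left 1 higher and 4 lower, for the primitive streak list 0 higher and 3 lower, and for the Xlr family 0 higher and 9 lower. Over all genes, 5715 of the 16267 tested had an unadjusted p under 0.05 in limma, in either direction. The counts of the silencing, ERK and primitive streak lists were not far above that share.

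**Figure D4:**
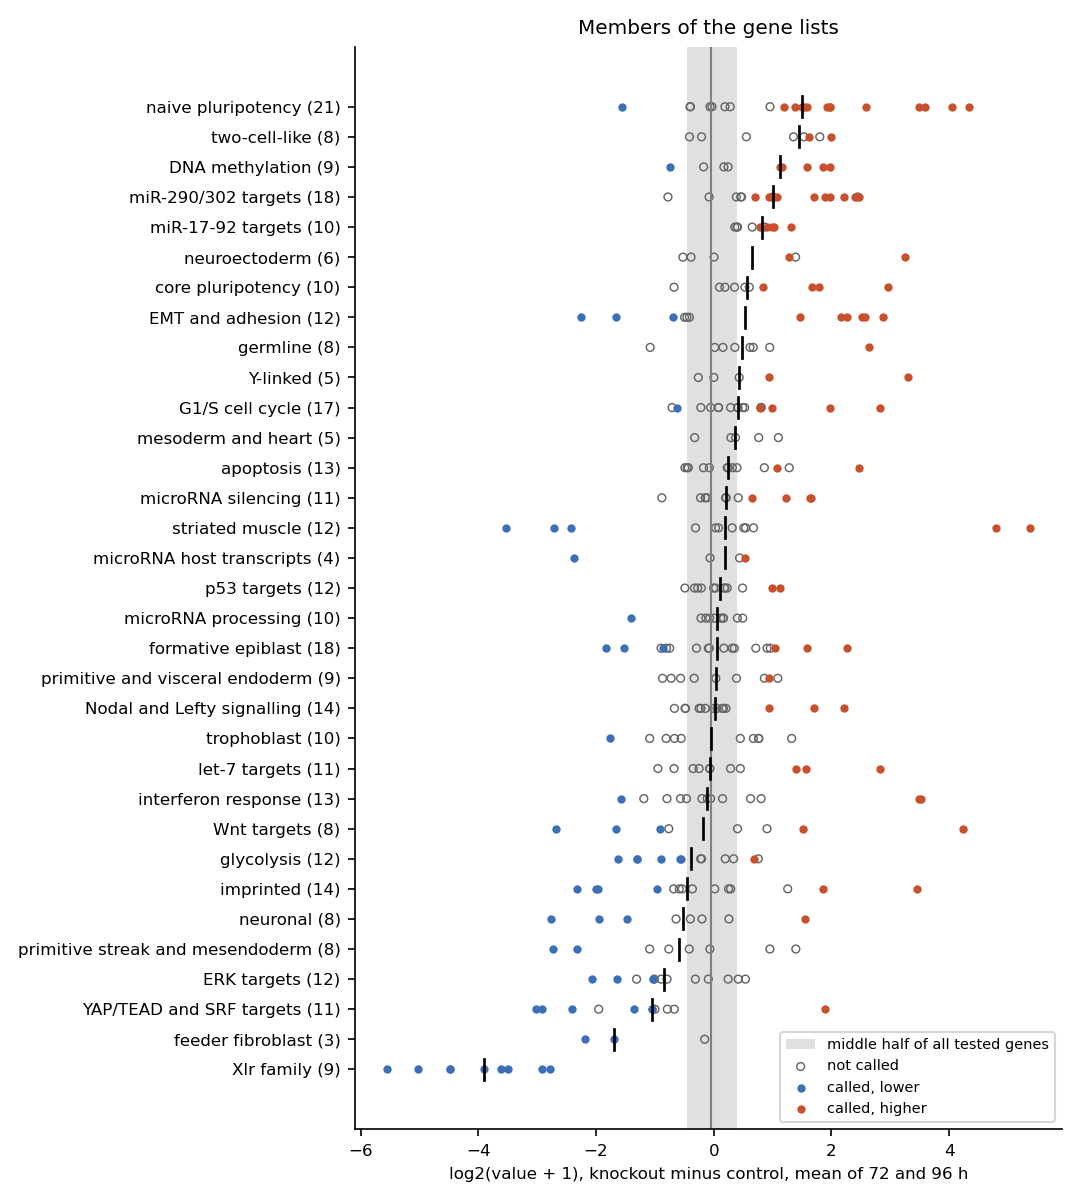
Difference of every tested list member, knockout minus control in log2(value + 1) as the mean of 72 and 96 h, with the number tested in brackets, filled points called and open points not called, a black tick at each list's median, and a grey band over the middle 50% of all tested genes. The lists were sorted by their median, from the Xlr family at −3.90 up to the naive pluripotency list at 1.5.

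Ranked over all genes with a mean of at least 20 at the late hours, the largest calls were of varied function. Neurog3, a factor of endocrine and neural progenitors, stood at 34.1 and 47.4 in the knockout and was listed at 0 in both controls, at least 22.7-fold higher at 72 h and at least 37.1-fold higher at 96 h against 3 reads per library. Nlrp12, an innate immune receptor gene, stood at 90 and 23.8 in the control and 1931 and 1809.9 in the knockout (5.30 ± 0.39, adjusted p = 0.000695), and it was as far apart at 24 and 48 h (4.78). Hoxa3, on chromosome 6, stood at 1.5 and 1.3 in the control and 51.7 and 148 in the knockout (5.21 ± 0.53, adjusted p = 0.00161). Apln, the ligand of the apelin receptor, stood at 3.5 and 1.7 in the control and 120.1 and 81.8 in the knockout (4.84 ± 0.39, adjusted p = 0.00101). R3hdml stood at 2 and 0.4 in the control and 103 and 53.8 in the knockout, Accsl at 3.5 and 0 in the control and 85.2 and 33.1 in the knockout, Tex13 at 9.5 and 11.1 in the control and 295 and 301 in the knockout, Crisp1 at 2 and 0 in the control and 63.8 and 25.1 in the knockout and Ripply1 at 1 and 1.3 in the control and 73.2 and 33.8 in the knockout. Smyd1 and Ttn also belong to the 12 largest rises, and each of the 11 named here except Nlrp12 stood at 11.1 or less in both control libraries. Those low control values partly follow from the choice. The mean of at least 20 could be reached through the knockout, and ranking by log2 difference favours a low control.

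The 12 largest falls included the Xlr genes. Matn3, a cartilage matrix protein, stood at 86 and 127 in the control and 1.1 and 2.6 in the knockout (−5.26 ± 0.56, adjusted p = 0.00171). Hapln4, a hyaluronan link protein, stood at 187 and 163 in the control and 9.5 and 27.1 in the knockout (−3.35 ± 0.68, adjusted p = 0.0145). Mcoln3, an ion channel, stood at 45.5 and 169 in the control and 4.6 and 18.9 in the knockout (−3.08), Hrc, a calcium-binding protein of muscle, at 29.5 and 66.4 in the control and 3.9 and 5.1 in the knockout (−3.05), Psors1c2 at 86.5 and 89.4 in the control and 5.9 and 9.1 in the knockout (−3.41), and Marveld3, a tight junction protein, at 90.5 and 132 in the control and 4.7 and 32.1 in the knockout (−3.01). Cnn1 and 4 Xlr genes (Xlr5b, Xlr3a, Xlr3b and Xlr3c) are also among the 12. In the control Mcoln3 and Cnn1 reached their highest values at 96 h, 169 and 236.

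Whether the knockout effect at 72 and 96 h differs from that at the earlier hours was tested as the late difference minus the mean of the differences at 0 and 6 h and at 24 and 48 h. Of 16267 genes 207 (1.27%) were called, 149 (0.916%) towards higher and 58 (0.357%) towards lower values in the knockout. Gadd45g, a growth arrest and DNA damage gene, read 12.2, 4.2, 39.1, 51.3, 29.5 and 13.6 in the control and 3.1, 1, 3, 50.5, 227 and 178 in the knockout over the 6 hours, a change of 4.86 ± 0.81 (adjusted p = 0.0386). Tgfbi, a matrix protein induced by TGF-beta, read 123, 20.2, 11.8, 13.3, 15 and 13.6 and 14.1, 4.8, 16.9, 66.8, 314 and 237 (4.71 ± 0.55, adjusted p = 0.0194). In both genes the knockout lay below the control at 0 h and above it at 72 and 96 h. Sox1 turned from −2.12 at 0 and 6 h and −2.32 at 24 and 48 h to 1.39 (3.61 ± 0.53, adjusted p = 0.0309), and the naive receptor Nr0b1 from −0.06 and 0.94 to 4.05 (3.61 ± 0.62, adjusted p = 0.0417). Sox2 went from 0.54 and 1.13 to 2.96 (2.13 ± 0.24, adjusted p = 0.0194).

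In the other direction, the genes given here were higher in the early knockout and then came closer to the control or fell below it. Zbp1 and Ctnnd2 were still above the control at 72 and 96 h. Gbp2, an interferon-induced GTPase, read 0, 1.2, 3.6, 67.3, 160 and 186 in the control and 36.3, 104, 30.8, 105, 94.3 and 166 in the knockout (−4.02 ± 0.57, adjusted p = 0.0269), so the control climbed above the knockout at 72 and 96 h. Robo1, an axon guidance receptor, read 62.6, 32.1, 28.2, 18.6, 75 and 106 and 400, 245, 251, 187, 121 and 103 (−2.66 ± 0.28, adjusted p = 0.0194), with the control rising and the knockout falling after 48 h. Zbp1, a sensor of nucleic acids, read 17.4, 2.4, 1.8, 1.8, 8 and 10.6 and 214, 40.5, 58.2, 65, 14.2 and 21.4 (−3.18 ± 0.37, adjusted p = 0.0194), and Ctnnd2, a catenin of neurons, 20.9, 41.7, 13.6, 4.4, 34.5 and 24.3 and 217, 213, 201, 115, 46.8 and 35.8 (−2.98 ± 0.37, adjusted p = 0.0194). Ackr4, a chemokine scavenger, crossed from 1.64 at 0 and 6 h to −2.84. These calls are the least stable ones reported: without the trend in limma 0 were left (2413 genes at an unadjusted p under 0.05), without the hour block 1, with the 72 h pair left out 21 and with the 96 h pair left out 0. The step in Y-linked genes and in Lars2 falls at the same hours, and its part in these calls was not tested.

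**Figure D5:**
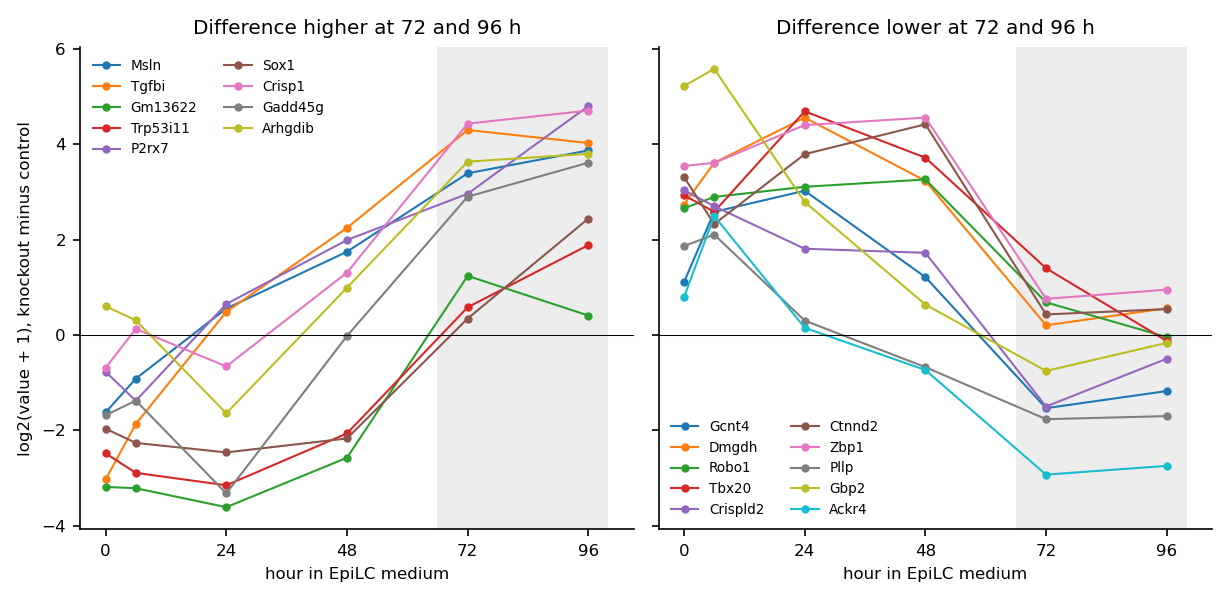
Knockout minus control difference of log2(value + 1) by hour for 9 of the 10 genes with the largest called increase of that difference at 72 and 96 h (left) and the 10 with the largest called decrease (right), with 1 library a side per point, no error bars, and 72 and 96 h shaded. On the left every line lies higher at 72 and 96 h than at 48 h and ends above 0, and on the right lines that began above 0 come down, with Ackr4 ending at −2.75.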

How the data were processed

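PolyA RNA was measured in 12 libraries used here, the KH2-ISY1 line without Dox and the DGCR8 knockout at 0, 6, 24, 48, 72 and 96 h. The deposited values are signal: the authors divided gene read counts by 1 factor per library and rounded to 1 decimal, as the values up to 20 reads show: all are multiples of 1 step within the rounding, also in the knockout libraries at 72 and 96 h, where 60.6% and 69% of 1-decimal values could be. The aligner Bowtie and the builds GRCm38 and mm9 are named in the submitters' processing notes, without roles; the counter and annotation are not given in the sources used here. The TruSeq stranded kit is named per the labels' protocols. The microRNA values are deposited signal on an unstated scale. Of 16346 lines, 1 without a name was dropped, and 20 genes with date-like names were kept unnamed. Genes averaging 1 or more across the 12 libraries were tested as log2(value + 1) with limma 3.58.1 in R 4.3.3 (empirical Bayes with trend), with hour as a block and a knockout effect per phase (0 and 6, 24 and 48, 72 and 96 h), leaving 3 residual degrees of freedom (prior 5.04). P-values were two-sided, Benjamini-Hochberg adjusted over all tested genes. Hours stand in for replicates, so p-values measure the spread of the line difference between neighbouring hours, which includes its real change with time. Estimated reads came from the value of 1 read, found from the low values; floors are 3 reads and cover counting error only. In the knockout libraries at 72 and 96 h the rounding left 34% and 22.9% of the values up to 20 reads within 0.1 reads of a whole number, so no count model was run. Code was tested on simulated data. The gene members and the 33 lists were chosen with earlier results of these data known. Named genes are Dgcr8, the defining markers, up to 4 called members per list and direction, the 12 largest rises and falls (mean of at least 20 at the late hours), and the 10 largest late minus earlier calls each way (mean of at least 20); a few list members outside this rule were named after their values were seen, and some genes are not reported here. Chromosomes came from RefSeq GRCm38.p6, matched by symbol for 92.9% of tested genes.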

Additional observations from a re-analysis of the deposited data

Results flagged for a closer look

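The knockout effect at 72 and 96 h differed from that at 0 to 48 h by limma's test of the difference itself in 36 of the named or listed genes, 25 towards higher and 11 towards lower values in the knockout, beside 207 (1.27%) of all tested genes. Of the 36, 19 were named because this difference was among the largest, so the count describes that choice. Each value below is the late log2 difference minus the mean of the earlier ones.

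Called shifts up were found for 6 of 21 naive, 2 of 10 core pluripotency and 1 of 8 germline genes, beside 0.916% of all genes. Called shifts down numbered 0 in these lists. The genes were Nr0b1 by 3.61, Dppa3 by 2.97, Pecam1 by 2.83, Gbx2 by 2.79, Dazl by 2.40, Sox2 by 2.13, Lin28a by 1.87, Esrrb by 1.35 and Tet2 by 1.24. Among naive genes without a call, Klf4 (−1.33), Klf5 (−0.99) and Nanog (−0.78) went the other way. Dazl, from the germline list, was not called at 72 and 96 h. Lin28a shifted from below the control towards it and was not called at 72 and 96 h. The genes Hoxa3 (5.91), Gadd45g (4.86), Tgfbi (4.71), Crisp1 (4.55), Gm13622 (3.97), Trp53i11 (3.88), P2rx7 (3.76), Msln (3.69), Arhgdib (3.65, on chromosome 6), Sox1 (3.61), Apln (3.38), Tex13 (2.90) and Rhoc (1.81) also shifted up. The Y-linked genes Usp9y (5.11), Eif2s3y (2.31) and Ddx3y (2.21) shifted with them.

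Shifts down were found for Gbp2 (−4.02), Ackr4 (−3.51), Gcnt4 (−3.34), Crispld2 (−3.32), Zbp1 (−3.18), Dmgdh (−3.15), Ctnnd2 (−2.98), Tbx20 (−2.84), Robo1 (−2.66), Pllp (−2.63) and Irf1 (−1.24). Gm13622 fell in the control, from 93.9, 61.3, 62.7, 35.4, 1.5 and 3 over the 6 hours, while the knockout stayed between 4.2 and 9.4. Gcnt4, Crispld2 and Dmgdh, by contrast, fell in the knockout, Dmgdh from 579 at 0 h to 1.8 at 96 h.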

How the results depend on the processing

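Direction was the same under every alternative for all 126 named genes called at 72 and 96 h, and 23 of them, among them Casp2, Rbl2, Sox2, Pecam1, Nr5a2, Ttn, Smyd1, Aldoa, Peg3 and Xlr3a, were called under each alternative run on them, while 103 lost the call under at least 1. For direction this was mostly fixed in advance and is no support. All 3081 called genes had the same sign at both hours, so leaving out a pair could not reverse a called gene. Leaving out the block or the trend, or using the late libraries alone, leaves the difference itself unchanged. Without the hour as replicate block 1011 genes were called (604 higher, 407 lower), and 56 of the 126 kept the call. The 4 late libraries alone, with 1 residual degree of freedom, gave 5614 (2630 higher, 2984 lower). Without the trend, limma gave 1719 (978 higher, 741 lower). Leaving out 1 pair gave 166 to 339 calls (127 to 289 higher, 39 to 50 lower), where the lone pair is assumed to vary like the other hours. For the late minus earlier difference, 207 calls (149 up, 58 down) became 1 (1 up, 0 down; 1348 at an unadjusted p under 0.05) without the replicate block, 0 (0 up, 0 down) without the trend, and 0 to 21 (0 to 18 up, 0 to 3 down) without 1 pair. Scaling, pseudocount and filter moved neither total by 1.5 times or more, but moved a count of calls by as much in 11 of 33 lists, where a few calls are concerned (endoderm from 1 to 0, neuroectoderm from 2 to 1, formative lower calls from 3 to 2), and turned the sign of the median in 3 (adhesion, Wnt targets and trophoblast). Neither total was moved so far by leaving out genes of chromosomes 1, 6 and Y, chosen after seeing the data (2653 called). A count model, planned if whole reads could be recovered in all 4 late libraries, was not run. Hours are shared time points, not shared cultures. Depth limits low genes: the control floor is 1.5 and 1.28 units at 72 and 96 h.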

Other observations

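Hox genes, which set position along the body axis and are usually silent in pluripotent cells, were examined after their values were seen. Of 22 tested, 10 were called higher in the knockout at 72 and 96 h and 0 lower, with a median difference of 1.67, against 9.95% of all genes called higher. Members near 0 in the control could pass the filter on low values through the knockout and could hardly be called lower. The counts are therefore a description only. Of these, 7 of the 9 Hoxa genes were called, 2 of 3 Hoxb, 1 of 3 Hoxd and 0 of 7 Hoxc genes by limma. Hoxa5 stood at 1.5 and 0.9 in the control and 27.2 and 71 in the knockout and Hoxa2 at 0 and 1.3 in the control and 26.3 and 35.7 in the knockout. In the b cluster Hoxb13 stood at 1 and 0.9 in the control and 11.9 and 17.8 in the knockout and Hoxb9 at 2 and 0 in the control and 14 and 8.4 in the knockout. The Hoxa cluster lies on chromosome 6, whose median difference was 0.35, and the part of that shift was not tested. Neighbouring Hox genes share regulation and overlapping transcripts, so they are not independent observations, and the control values amount to few reads.

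On chromosome 6, 155 genes were called higher and 22 lower, and on chromosome 1 163 higher and 42 lower. Among genes with a mean of at least 20, 26% of chromosome 6 genes and 21.6% of chromosome 1 genes were called higher, against 6.7% on chromosome 19 and 15.4% on chromosome 2. Mitochondrially encoded transcripts made up 3.95% and 3.84% of the knockout libraries at 72 and 96 h and 4.87% to 5.99% of the earlier ones, while the control libraries held 3.19% to 4.1%.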
